A study of Rattus norvegicus and Mus musculus with 25 samples.

Results

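Thrombospondin-1 was knocked down in cultured heart muscle cells of newborn rats, and the RNA of the knockdown cells was set against that of cells given a control siRNA. The si-Thbs1 group holds 2 libraries transfected with siRNA against Thbs1 at 50 nM for 60 h. The si-Control_t group holds 2 libraries transfected with control siRNA at the same dose and time. These 4 libraries are all those that the labels give as si-Thbs1 or si-Control_t, out of 16 rat and 25 libraries in the series, and none of their measured values was used to choose them. Both groups are ventricular cells of 1-day-old SD rats with no genetic change. They were digested with trypsin and collagenase, pre-plated to remove cells that attach faster, plated on collagen in medium with serum, and then kept in low-serum medium. The sources used here give neither the siRNA sequences nor their number, and no label ties the libraries to separate cultures or litters. P-values here cover no more than the differences among these 4 libraries, which may be technical in origin. Of 28905 genes in the table, 13416 reached 1 CPM (counts scaled to the size of the library) in at least 2 of the 4 libraries and were tested.

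Thrombospondin-1 is a large trimeric glycoprotein secreted into the matrix by many cells of the injured or stressed heart. It binds the cell surface protein CD47, integrins and proteoglycans, can activate latent TGF-beta, and is cleared by receptors of the LDL receptor family. The very low density lipoprotein receptor, which also binds reelin, belongs to that family, and the series names it as the receptor studied. Cardiomyocytes of newborn rodents still divide for a few days after birth, so genes of cell division can be read in such cultures. Small interfering RNAs are double-stranded RNAs, and cells can answer double-stranded RNA through sensors that switch on interferons and interferon-stimulated genes.

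The 4 libraries held 17340 to 17482 genes above 0. The files give no read numbers: low values lie in steps of unknown size in reads, and the steps sum to 87067457 to 96059594 per library. Depth in reads is not known, and these sums do not show whether it was similar. Mitochondrial transcripts took 4.50% and 5.38% of the CPM in the si-Thbs1 libraries and 5.89% and 5.43% in the si-Control_t libraries. Replicate 1 of si-Thbs1 lay closer to replicate 1 of si-Control_t (root mean square difference 0.34 on the log2(CPM + 1) scale) than to its own partner (0.43), and the 2 si-Control_t libraries differed by 0.41. The cardiomyocyte troponin gene Tnnt2 was at 4605 and 4226 CPM in si-Thbs1 and at 4465 and 4321 CPM in si-Control_t, so this marker of the labelled cell type was present in all 4 libraries. The 11 cardiomyocyte markers summed to 31894 and 17583 CPM in si-Thbs1 and 26805 and 20689 CPM in si-Control_t. The 12 fibroblast markers were abundant too, summing to 30871 and 37480 CPM in si-Thbs1 and 35616 and 40990 CPM in si-Control_t. In bulk RNA such as this, fewer cells of a type and less RNA per cell cannot be told apart.

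The targeted gene was lower in both knockdown libraries, unequally so. Its level was 745 CPM in replicate 1 and 546 CPM in replicate 2 of si-Thbs1, against 943 CPM in replicate 1 and 892 CPM in replicate 2 of si-Control_t. Both si-Thbs1 libraries lay below both controls, replicate 2 further than replicate 1. The log2 fold change was -0.52 ± 0.19 (SE, n = 2 a group; 95% interval -0.99 to -0.05), which did not pass limma's test with Benjamini-Hochberg adjustment over all genes (adjusted p = 0.821). A two-sided exact permutation test gave p = 0.333, the smallest that 2 libraries against 2 allow. The value was -0.75 without si-Thbs1 replicate 1 and -0.30 without si-Thbs1 replicate 2. In the other rat table, which was scaled separately, Thbs1 ranged over 1322 to 3557 CPM in 10 libraries of the si-Vldlr, si-Control_v, Reelin, PBS and Vldlr OE groups, above both si-Control_t libraries.

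Among the relatives and receptors of thrombospondin-1, differences were small. Of 19 genes tested, which include Thbs1 itself, 9 were higher and 10 lower in mean after si-Thbs1. The shares of all genes tested were 58.4% higher and 41.6% lower. The libraries of the groups did not overlap in 4 of the 9 higher and 5 of the 10 lower genes, against 18.5% and 10.8% of all genes. Thbs1 is among those 5. Limma called 0 of them, and 2 had an unadjusted p under 0.05 (Thbs1 and Thbs2), against 5.52% of all genes. Thbs2, the closest relative, was 244 and 250 CPM in si-Thbs1 and 301 and 326 CPM in si-Control_t (log2 fold change -0.34 ± 0.12, limma adjusted p = 0.833). The groups did not overlap, and the siRNA was labelled for Thbs1 alone. Thbs3 was 17.2 and 20.9 CPM against 16.9 and 22.6 CPM, and Thbs4 did not pass the filter, with at most 1.17 CPM in a library. Cd47, the thrombospondin receptor of the cell surface, was 83.8 and 88.9 CPM in si-Thbs1 and 95.8 and 116 CPM in si-Control_t (-0.29 ± 0.15). Lrp1, an endocytic receptor that takes up thrombospondins, was 815 and 1042 CPM in si-Thbs1 and 1133 and 1136 CPM in si-Control_t (-0.30 ± 0.17). Both lay lower without overlap, and neither passed the test (limma adjusted p = 1 for each).

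The receptor pathway that the series studies showed no call. Of 14 genes of the Reelin and Vldlr pathway, 11 were higher and 3 lower in mean, and limma called 0, with 0 at an unadjusted p under 0.05. Vldlr was 285 and 166 CPM in si-Thbs1 and 261 and 159 CPM in si-Control_t, a log2 fold change of 0.09 ± 0.34 with a 95% interval of -0.75 to 0.94. The replicates of each group were further apart than the groups, with replicate 1 the higher in both. A difference within that interval is not excluded by these libraries. Lrp8, the other reelin receptor, was 20.4 and 15.3 CPM in si-Thbs1 and 14.1 and 12.8 CPM in si-Control_t (0.37 ± 0.19). Reln itself was at 2.11 and 3.90 CPM in si-Thbs1 and 2.86 and 2.40 CPM in si-Control_t. The intracellular adaptor Dab1 stayed under the filter, at no more than 0.375 CPM in any library.

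Limma called 6 of 13416 genes, which is 0.0447% of those tested, 4 of them higher (0.0298%) and 2 lower (0.0149%) after si-Thbs1. Of these, 5 were listed at exactly 0 in a whole group. Ebna1bp2, a nucleolar protein of ribosome assembly, was 15.3 and 16.6 CPM in si-Thbs1 and listed at 0 in both si-Control_t libraries (limma adjusted p = 0.00853). LOC100911917 was 10.6 and 13.5 CPM and AABR07035375.1 was 6.53 and 7.01 CPM in si-Thbs1, and both were listed at 0 in si-Control_t (limma adjusted p = 0.0117 and 0.0209). Rbm12, an RNA-binding protein, and LOC100910833 were listed at 0 in both si-Thbs1 libraries, with 13.5 and 16.0 CPM and 18.8 and 19.2 CPM in si-Control_t (limma adjusted p = 0.00893 and 0.00853).

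Such listings at 0 also occurred within groups. In si-Thbs1, 36 genes were at 0 in one library and at 5 CPM or more in the other, and in si-Control_t 28 were, while 5 genes switched in this way between the groups without a mixed pair. In the other rat table Ebna1bp2 was listed at 0 in 4 of 10 libraries, Rbm12 in 3, LOC100910833 in 2 and LOC100911917 in 1. AABR07035375.1 was at 5.95 to 7.38 CPM in all 10, which leaves the si-Control_t libraries as those without it. Without the genes listed at 0 in any library, Rpl35al1 was the call that remained.

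That gene, Rpl35al1, is a copy of the ribosomal protein gene Rpl35a. It was 54.8 and 59.2 CPM in si-Thbs1 and 3.52 and 2.26 CPM in si-Control_t (log2 fold change 3.92 ± 0.21, limma adjusted p = 0.0109). Rpl35a was 59.7 and 54.6 CPM in si-Thbs1 and 97.3 and 91.0 CPM in si-Control_t, the opposite direction (-0.71 ± 0.13). Added together, the 2 genes came to 115 and 114 CPM in si-Thbs1 and 101 and 93.2 CPM in si-Control_t. In the other rat table, scaled separately, Rpl35al1 ranged over 5.71 to 49.6 CPM and differed within groups, as in Vldlr OE (40.1 and 10.2 CPM). Both si-Thbs1 libraries lay above that range and both si-Control_t libraries below it. Reads of near-identical copies can be shared out differently between them, and RefSeq lists the name Rpl35al1 both for a gene of its own and as a synonym of Rpl35a, so the call is uncertain.

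**Figure D1:**
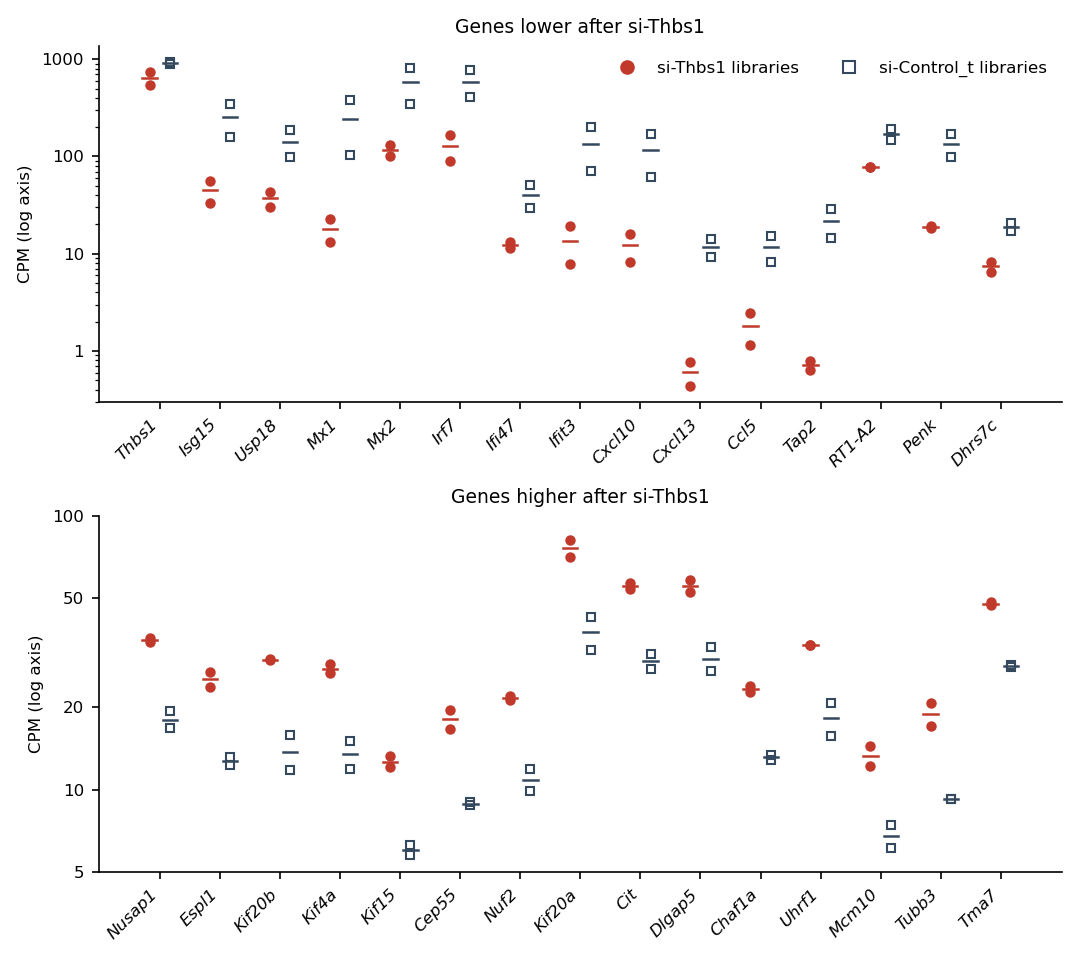
Values of leading genes by library, in CPM on a log axis: filled red circles are the 2 si-Thbs1 libraries, open squares the 2 si-Control_t libraries, and bars the group means. In every gene shown, the 2 groups do not overlap: the si-Thbs1 libraries lie below the controls in the upper panel and above them in the lower panel.

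Below the threshold of a call, interferon-stimulated genes had the lowest median of the lists described. Of 66 listed genes in the table, 64 were tested, and all 64 were lower in mean after si-Thbs1, with a median log2 fold change of -1.18 (all genes tested: 0.03) and a range of -3.44 to -0.26. The libraries did not overlap in 62 of them, against 10.8% of all genes lower without overlap, and Irf1 and Slfn13 were the exceptions. Limma called 0 of the 64 with Benjamini-Hochberg adjustment, and 58 had an unadjusted p under 0.05 in the lower direction, against 2.49% of all genes. A single member, Zbp1, passed the filter through the control group alone.

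The members with the smallest p are classic products of an interferon response. Isg15, a ubiquitin-like modifier, was 56.6 and 33.5 CPM in si-Thbs1 and 158 and 347 CPM in si-Control_t (log2 fold change -2.40 ± 0.42). Usp18, the protease that removes it and dampens the interferon receptor, was 43.6 and 30.5 CPM in si-Thbs1 and 98.8 and 186 CPM in si-Control_t (-1.87 ± 0.33). Mx1, a dynamin-like GTPase that blocks viruses, was 22.9 and 13.2 CPM in si-Thbs1 and 103 and 384 CPM in si-Control_t (-3.44 ± 0.62). In each, both knockdown libraries lay under both controls, and the 2 controls lay far apart. The relative Mx2 was 130 and 100 CPM against 349 and 812 CPM (-2.21 ± 0.40). Ifi47, an interferon-inducible GTPase, was 13.2 and 11.5 CPM in si-Thbs1 and 29.4 and 50.7 CPM in si-Control_t (-1.57 ± 0.28). The limma adjusted p was 0.471 for these 5 genes.

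The spread between the controls runs through the whole list. Replicate 2 of si-Control_t was above its replicate 1 in 64 of 64 genes, and in si-Thbs1 replicate 2 was below replicate 1 in 44 of 64. The summed level of the list was 4143 and 3684 CPM in si-Thbs1 and 7036 and 11886 CPM in si-Control_t. Without si-Control_t replicate 1 the median was -1.59, and without si-Control_t replicate 2 it was -0.79, with 63 of 64 lower. Either control alone put nearly all members lower in si-Thbs1, while the size differed. A fit with a single control library holds no spread between controls.

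Sensors and regulators upstream of interferon were lower in part. Of 28 tested, 24 were lower and 4 higher in mean (median -0.21), 13 lower without overlap, against 10.8% of all genes. Limma called 0, and 9 had an unadjusted p under 0.05, against 5.52% of all genes. Irf7, the transcription factor that amplifies interferon production, was 167 and 89.3 CPM in si-Thbs1 and 408 and 771 CPM in si-Control_t (-2.19 ± 0.40). Ifih1, the cytosolic sensor MDA5 of long double-stranded RNA, was 27.3 and 26.3 CPM in si-Thbs1 and 47.1 and 81.8 CPM in si-Control_t (-1.18 ± 0.27). Ddx58, the sensor RIG-I, was 29.1 and 25.0 CPM against 47.7 and 94.3 CPM (-1.28 ± 0.32), and Eif2ak2, the RNA-activated kinase PKR, was 108 and 108 CPM against 164 and 239 CPM (-0.87 ± 0.20). These sensors are themselves induced by interferon: 6 of the 28 genes, Ddx58, Dhx58, Eif2ak2, Ifih1, Irf7 and Zbp1, are also among the 64 interferon-stimulated genes, so the genes named here were counted there already. Transcripts of interferons themselves were scarce: Ifnb1 was listed at 0 in both si-Thbs1 libraries and at 0.0225 and 0.138 CPM in si-Control_t, and Ifna4 and Ifng at 0 in all 4.

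Genes of antigen presentation were lower too. All 15 tested genes of peptide loading and the immunoproteasome were lower in mean after si-Thbs1 without overlap (median -0.81), against 10.8% of all genes. Of the 15, 13 had an unadjusted p under 0.05, against 2.49% of all genes in that direction, and limma called 0. Tap2, a subunit of the transporter that feeds peptides to MHC class I, was 0.781 and 0.637 CPM in si-Thbs1 and 14.5 and 28.5 CPM in si-Control_t (-3.65 ± 0.33, limma adjusted p = 0.0842). It passed the filter through the controls alone, and in the other rat table it ranged over 1.56 to 23.2 CPM. Its partner Tap1 was 38.2 and 38.7 CPM in si-Thbs1 and 56.1 and 113 CPM in si-Control_t (-1.03 ± 0.32). The near-absence of Tap2 was thus not shared by the other subunit. Class I genes RT1-A2 (78.7 and 77.7 CPM in si-Thbs1 against 148 and 192 CPM in si-Control_t) and RT1-CE5 (39.1 and 37.6 CPM in si-Thbs1 against 64.5 and 81.0 CPM in si-Control_t) are members of a family of near-identical genes, so their separate values are uncertain. B2m, the invariant class I chain, was 1156 and 1027 CPM against 1583 and 2292 CPM (-0.81 ± 0.22).

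Chemokines and cytokines were lower in mean in 26 of 26 tested genes (median -0.60), 17 without overlap, against 10.8% of all genes. Of the 26, 14 had an unadjusted p under 0.05, against 2.49% of all genes in that direction, and limma called 0. Cxcl13, which attracts B cells, was 0.437 and 0.771 CPM in si-Thbs1 and 9.20 and 14.1 CPM in si-Control_t (-2.96 ± 0.26, limma adjusted p = 0.0842). It too passed the filter through the controls alone. The interferon-induced chemokine Cxcl10 was 16.1 and 8.28 CPM in si-Thbs1 and 60.9 and 172 CPM in si-Control_t (-3.04 ± 0.53), and Ccl5 was 2.48 and 1.16 CPM in si-Thbs1 and 8.22 and 15.1 CPM in si-Control_t (-2.15 ± 0.36). Targets and feedback genes of NF-kappaB were lower in 25 of 26 (median -0.24). Of the 26, 9 were lower without overlap (10.8% of all genes) and 4 had an unadjusted p under 0.05 (5.52% of all genes). Among these, complement factor B (Cfb) was 53 and 18.9 CPM in si-Thbs1 and 104 and 156 CPM in si-Control_t (-1.97 ± 0.48), and the adhesion molecule Vcam1 was 61.9 and 89.6 CPM against 122 and 238 CPM (-1.18 ± 0.35). Leaving out si-Control_t replicate 2 brought the NF-kappaB median to -0.05 with 17 of 26 lower.

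**Figure D2:**
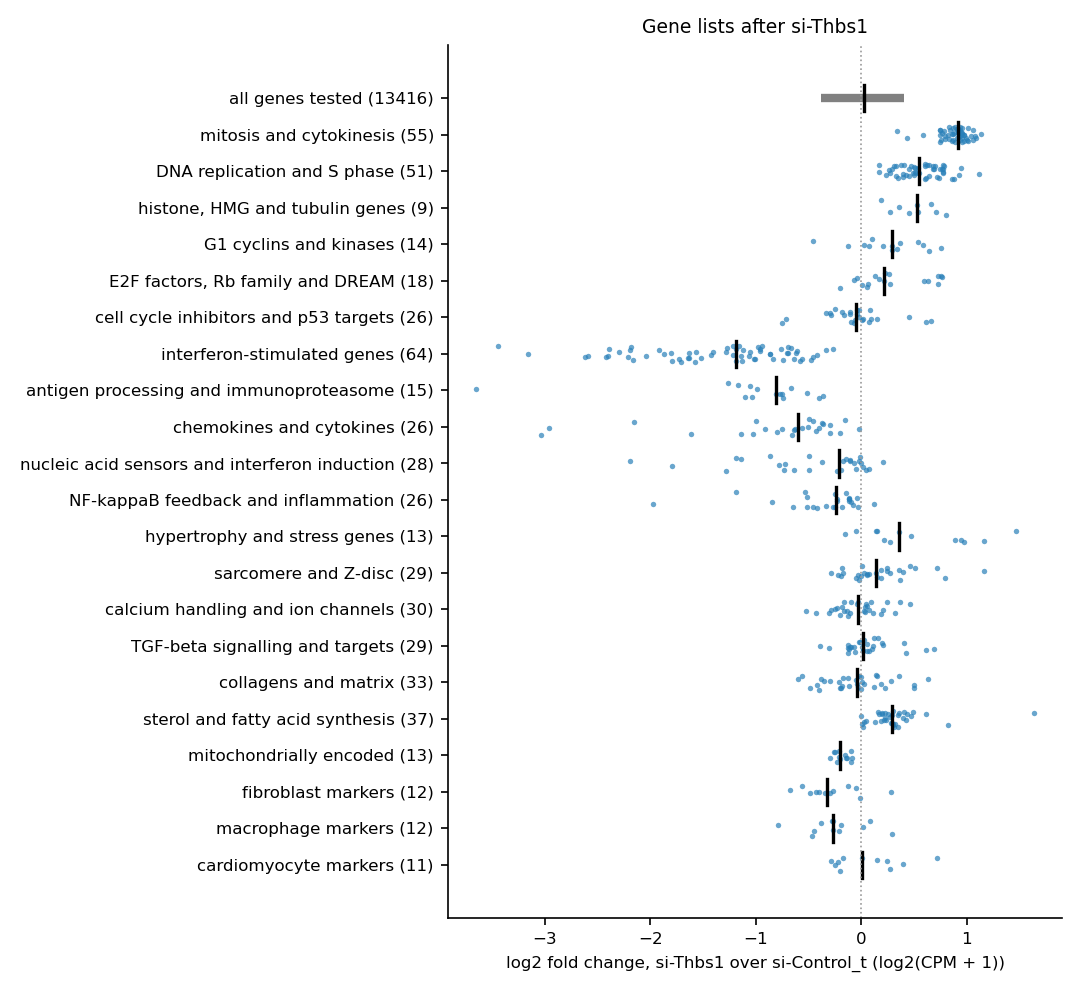
Log2 fold change of si-Thbs1 over si-Control_t for each tested gene of the lists named (points; number of genes in brackets), with the list's median as a black tick and, for all genes tested, the range between the 5th and 95th percentiles as a grey bar. Mitosis genes lie together near 0.91 and interferon-stimulated genes spread from -3.44 to -0.26, while cardiomyocyte markers lie on both sides of 0.

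The promoters of 3 of these genes are shown because each holds an element named for interferon-stimulated genes. The element is the core of the interferon-stimulated response element, 2 GAAA strings with 2 bases between them, searched on both strands and printed in capitals. Sequences are from RefSeq on the GRCr8 build, 5′ to 3′ on the gene's strand, from 150 bases before to 30 after the annotated start. They are Ifit3, an interferon-induced RNA-binding protein, at chr1:241527176-241527355 (plus strand), Irf7 at chr1:205799994-205800173 (minus strand) and Tap2 at chr20:4652267-4652446 (minus strand).
Ifit3: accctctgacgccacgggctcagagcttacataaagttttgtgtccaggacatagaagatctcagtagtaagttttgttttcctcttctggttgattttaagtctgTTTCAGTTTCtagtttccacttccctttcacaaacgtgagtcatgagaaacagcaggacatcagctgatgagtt
Irf7: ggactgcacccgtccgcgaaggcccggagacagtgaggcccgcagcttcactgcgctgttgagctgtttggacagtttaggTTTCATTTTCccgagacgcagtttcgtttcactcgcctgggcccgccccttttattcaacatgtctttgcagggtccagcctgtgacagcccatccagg
Tap2: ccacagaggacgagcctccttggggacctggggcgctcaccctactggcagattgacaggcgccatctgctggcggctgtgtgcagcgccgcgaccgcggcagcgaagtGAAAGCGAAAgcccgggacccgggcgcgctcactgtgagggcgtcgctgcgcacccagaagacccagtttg

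The match begins 44 bases before the start in Ifit3, 69 in Irf7 and 41 in Tap2. Ifit3 was 19.4 and 7.76 CPM in si-Thbs1 and 70.3 and 199 CPM in si-Control_t (-3.16 ± 0.59, limma adjusted p = 0.471). In windows of 300 bases (250 before to 50 after the start), the core was found in 30 of 46 interferon-stimulated genes with a single promoter entry (65.2%) and in 7 of 13 antigen presentation genes (53.8%). Of all tested genes with a single entry, 259 of 9024 had it (2.87%). Chemokine and cytokine promoters held it in 1 of 18 (5.56%). A match is a string of letters and not a measured binding site.

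Genes of cell division lay on the other side. All 55 mitosis and cytokinesis genes tested were higher in mean after si-Thbs1, 54 of them without overlap, against 18.5% of all genes higher without overlap. The median log2 fold change was 0.91, in a narrow range of 0.34 to 1.13, and the exception to the separation was Racgap1, a subunit of the centralspindlin complex (21.8 and 28.9 CPM in si-Thbs1 against 22.2 and 17.3 CPM in si-Control_t). Limma called 0 of the 55, and 53 had an unadjusted p under 0.05, against 3.03% of all genes in that direction. None of the 55 passed the filter through a single group.

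Spindle, kinetochore and midbody genes were among them. Nusap1, which bundles spindle microtubules, was 34.7 and 35.8 CPM in si-Thbs1 and 19.3 and 16.7 CPM in si-Control_t (log2 fold change 0.93 ± 0.15). Espl1, the protease separase that parts sister chromatids, was 26.9 and 23.7 CPM in si-Thbs1 and 13.2 and 12.3 CPM in si-Control_t (0.94 ± 0.16). Nuf2, a subunit of the kinetochore complex that holds microtubules, was 21.2 and 21.9 CPM in si-Thbs1 and 11.9 and 9.88 CPM in si-Control_t (0.93 ± 0.17). In all 3 the members of each pair lay close together and far from the other pair. Cenpt of the inner kinetochore was 11.7 and 9.57 CPM against 4.91 and 4.57 CPM (1.02 ± 0.18), and Zwilch, a spindle checkpoint component, 18.6 and 17.4 CPM against 9.60 and 9.34 CPM (0.86 ± 0.15).

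Kinesin motors were among the genes with the smallest p. Kif4a, a motor that binds chromosomes, was 28.7 and 26.7 CPM in si-Thbs1 and 15.0 and 11.9 CPM in si-Control_t (0.99 ± 0.17). Kif15, a motor of the spindle, was 12.1 and 13.3 CPM in si-Thbs1 and 6.27 and 5.78 CPM in si-Control_t (0.96 ± 0.17). Kif20a, a motor of the central spindle, was 81.5 and 70.9 CPM in si-Thbs1 and 42.8 and 32.5 CPM in si-Control_t (1.01 ± 0.18). Of the genes of the final cut between daughter cells, the midbody protein Cep55 was 19.5 and 16.6 CPM in si-Thbs1 and 9.01 and 8.80 CPM in si-Control_t (0.94 ± 0.17). Citron kinase (Cit) was 53.9 and 56.6 CPM in si-Thbs1 and 31.2 and 27.5 CPM in si-Control_t (0.89 ± 0.14). The limma adjusted p was 0.471 for each of these genes.

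The size of the difference again depended on the control library. The summed level of the list was 2205 and 1900 CPM in si-Thbs1 and 1255 and 903 CPM in si-Control_t. The median was 1.08 without si-Control_t replicate 1 and 0.69 without si-Control_t replicate 2. All 55 genes stayed higher in mean whichever single library was left out and under every scaling tried. Si-Control_t replicate 2, the library with the highest interferon-stimulated genes, was also the one with the lowest mitosis genes.

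The promoters of Nusap1 at chr3:127057145-127057324, Kif4a at chrX:69761733-69761912 and Espl1 at chr7:135302566-135302745 (all plus strand, RefSeq GRCr8, 150 bases before to 30 after the start, 5′ to 3′) are shown because they carry 2 elements known from late cell cycle genes. The cell cycle genes homology region was searched as TTTGAA and the CCAAT box as CCAAT, both on either strand, and both are in capitals.
Nusap1: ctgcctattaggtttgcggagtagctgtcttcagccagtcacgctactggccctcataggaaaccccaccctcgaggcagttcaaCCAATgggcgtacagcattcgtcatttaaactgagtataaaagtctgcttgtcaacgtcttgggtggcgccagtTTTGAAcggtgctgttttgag
Kif4a: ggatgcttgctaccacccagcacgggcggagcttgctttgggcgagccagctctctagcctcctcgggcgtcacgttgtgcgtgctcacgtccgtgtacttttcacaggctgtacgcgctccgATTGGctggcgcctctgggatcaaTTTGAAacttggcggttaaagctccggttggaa
Espl1: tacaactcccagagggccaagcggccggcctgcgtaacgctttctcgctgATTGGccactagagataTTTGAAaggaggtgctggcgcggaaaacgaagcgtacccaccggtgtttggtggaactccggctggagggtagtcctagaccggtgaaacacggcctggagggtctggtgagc

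The first of these elements was found in 34 of 46 mitosis genes with a single promoter entry (73.9%) and in 1028 of 9024 tested genes (11.4%). The CCAAT box was found in 34 of 46 mitosis promoters (73.9%) and in 37.6% of those of all tested genes. Matches of the 2 elements share a base in 4 of the 9024 promoters. DNA replication genes differed in this respect: TTTGAA was found in 5 of 44 (11.4%), the share of all genes, CCAAT in 28 of 44 (63.6%), and the E2F element TTTCCCGC in 6 of 44 (13.6%), against 2.15% of all genes. In the mitosis promoters that E2F string was found in 0 of 46.

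DNA replication and S phase genes were higher in mean in 51 of 51 tested, 48 without overlap, against 18.5% of all genes. Their median was 0.55, and 38 had an unadjusted p under 0.05, against 3.03% of all genes in that direction, while limma called 0. Chaf1a, the large subunit of the histone chaperone CAF-1, was 22.6 and 23.9 CPM in si-Thbs1 and 13.4 and 12.9 CPM in si-Control_t (0.78 ± 0.15). Uhrf1, which carries DNA methylation through replication, was 33.7 and 33.7 CPM in si-Thbs1 and 20.8 and 15.7 CPM in si-Control_t (0.86 ± 0.18). Mcm10, needed to start replication forks, was 14.4 and 12.2 CPM in si-Thbs1 and 7.44 and 6.13 CPM in si-Control_t (0.88 ± 0.19). Pcna, the sliding clamp, differed less, at 92.8 and 81.7 CPM against 60.9 and 60.3 CPM (0.51 ± 0.13). The median was 0.48 to 0.70 when single libraries were left out, and 50 or 51 of the 51 genes stayed higher.

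The machinery that drives entry into division was less uniform. Of 18 E2F, Rb family and DREAM genes, 15 were higher in mean, 10 without overlap (median 0.22), against 58.4% and 18.5% of all genes. Limma called 0, and 6 were higher at an unadjusted p under 0.05, against 3.03% of all genes. Mybl2, the Myb protein of the complex that activates mitosis genes, was 25.1 and 17.5 CPM in si-Thbs1 and 14.2 and 10.6 CPM in si-Control_t (0.73 ± 0.24), and its partner Lin9 was 10.2 and 10.6 CPM against 7.29 and 5.88 CPM (0.59 ± 0.18). Of 14 cyclins and kinases of G1, 12 were higher (8 without overlap) and 2 lower (both without overlap), with a median of 0.29. Over all genes, 18.5% were higher and 10.8% lower without overlap. Skp2, which marks cell cycle inhibitors for degradation, was 7.39 and 7.40 CPM in si-Thbs1 and 4.16 and 4.56 CPM in si-Control_t (0.65 ± 0.17), and cyclin E1 (Ccne1) was 10.6 and 10.5 CPM against 7.40 and 6.49 CPM (0.54 ± 0.17). Cdk6, a G1 kinase, lay in the other direction, at 8.50 and 10.2 CPM in si-Thbs1 and 12.6 and 13.7 CPM in si-Control_t (-0.45 ± 0.17).

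Inhibitors of the cell cycle were split. Of 26 inhibitors and p53 targets, 9 were higher and 17 lower in mean (median -0.05), 2 and 5 of them without overlap (18.5% and 10.8% of all genes). Limma called 0, with 3 at an unadjusted p under 0.05, against 5.52% of all genes. Cdkn2c (p18) was higher, at 18.6 and 19.3 CPM in si-Thbs1 and 12.1 and 11.1 CPM in si-Control_t (0.66 ± 0.15). Cdkn1c (p57) was lower, at 26.5 and 38.1 CPM in si-Thbs1 and 47.8 and 61.5 CPM in si-Control_t (-0.75 ± 0.23), as was Cdkn2b (p15), at 19.4 and 23.6 CPM against 44.0 and 28.9 CPM (-0.71 ± 0.24). Cdkn1a (p21), the main p53 target of arrest, was 113 and 130 CPM in si-Thbs1 and 155 and 144 CPM in si-Control_t (-0.30 ± 0.14). None of these 4 passed the test.

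A list of histone, HMG, tubulin and stathmin genes lay with the mitosis genes: all 9 tested were higher without overlap (median 0.53), against 18.5% of all genes. The list has 15 genes in the table. Hist1h1b, Hist1h2ba, Hist1h2bl, Hist1h4b, Hist2h2ab and Hist2h3c2 stayed under the filter, so the histone genes tested were H2afx and H2afz. Of the 9, 6 had an unadjusted p under 0.05, against 3.03% of all genes in that direction, and limma called 0. Stathmin (Stmn1), which takes apart microtubules, was 125 and 121 CPM in si-Thbs1 and 83.3 and 59.1 CPM in si-Control_t (0.80 ± 0.19). H2afz, a histone variant, was 82.4 and 85.8 CPM in si-Thbs1 and 70.5 and 60.3 CPM in si-Control_t (0.36 ± 0.14). Outside that list, the tubulin gene Tubb3, also a neuron marker, was 17.1 and 20.8 CPM in si-Thbs1 and 9.22 and 9.23 CPM in si-Control_t (0.96 ± 0.17), and Tma7, a small protein associated with ribosomes, was 47.2 and 48.4 CPM against 28.1 and 28.6 CPM (0.73 ± 0.13).

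**Figure D3:**
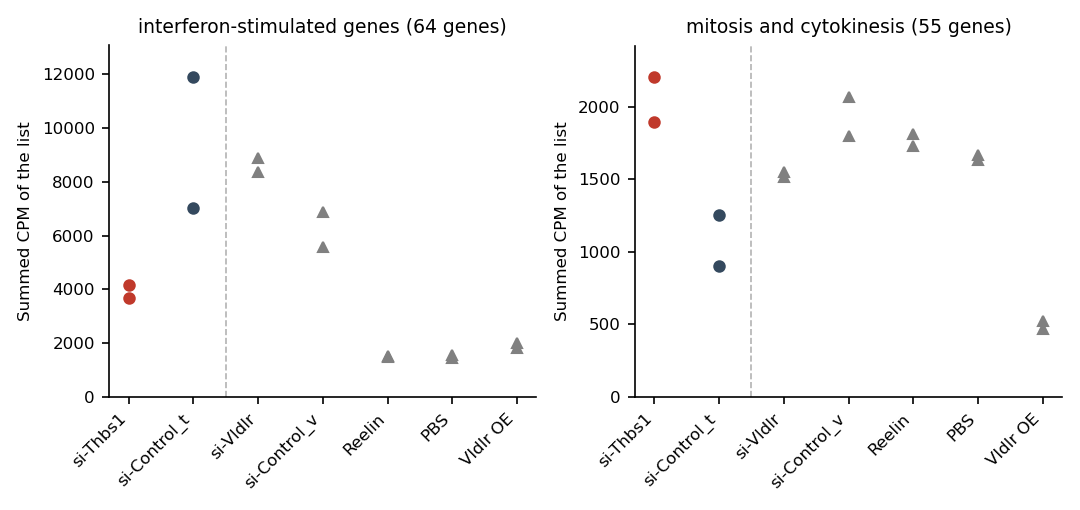
Summed CPM of interferon-stimulated genes (left) and mitosis genes (right) in each rat library; the dashed line separates the table of si-Thbs1 (red) and si-Control_t (dark) from the separately scaled table of the other groups (grey). The si-Thbs1 libraries, at 4143 and 3684 CPM, lie between the libraries with and without siRNA for interferon-stimulated genes. For mitosis genes they lie at 2205 and 1900 CPM, near si-Control_v at 2066 and 1801 CPM, while si-Control_t, at 1255 and 903 CPM, lies below the Reelin and PBS libraries and above Vldlr OE.

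Levels in the other rat table place the 2 groups, although that table was scaled separately and nothing was tested across tables. The interferon-stimulated genes summed to 8354 and 8902 CPM in si-Vldlr and to 6866 and 5590 CPM in si-Control_v, both siRNA-transfected. They summed to 1500 and 1463 CPM in Reelin, 1431 and 1569 CPM in PBS and 1980 and 1823 CPM in Vldlr OE, which were given no siRNA and had other treatment times. Both si-Thbs1 libraries were above all 6 libraries without siRNA in 57 of the 64 genes and below all 4 other siRNA libraries in 59, and 53 genes did both. Mitosis genes summed to 1514 and 1549 CPM in si-Vldlr, 2066 and 1801 CPM in si-Control_v, 1816 and 1729 CPM in Reelin, 1670 and 1633 CPM in PBS and 520 and 469 CPM in Vldlr OE. Both si-Thbs1 libraries, at 2205 and 1900 CPM, thus lay above the si-Vldlr, Reelin and PBS libraries, and both si-Control_t libraries, at 1255 and 903 CPM, below them.

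Outside these groups, single genes stood out. Penk, which encodes the precursor of the enkephalin opioid peptides, was 18.5 and 19.5 CPM in si-Thbs1 and 98.4 and 171 CPM in si-Control_t (-2.71 ± 0.27, limma adjusted p = 0.124). In the other rat table Penk ranged over 30.4 to 134 CPM, so the si-Thbs1 libraries were the lowest of the 14 and si-Control_t replicate 2 the highest. Dhrs7c, an enzyme of the sarcoplasmic reticulum, was 8.32 and 6.52 CPM in si-Thbs1 and 17.3 and 20.5 CPM in si-Control_t (-1.24 ± 0.19, limma adjusted p = 0.471). The gelatinase Mmp9 was 17.1 and 19.4 CPM in si-Thbs1 and 32.6 and 30.5 CPM in si-Control_t (-0.76 ± 0.15).

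Genes of contraction and calcium handling lay on both sides of 0. Of 29 sarcomere and Z-disc genes, 21 were higher and 8 lower in mean (median 0.14), against 58.4% and 41.6% of all genes. Limma called 0, and 3 had an unadjusted p under 0.05, against 5.52% of all genes. These 3 were Xirp2, an actin-binding protein of the intercalated disc (254 and 138 CPM in si-Thbs1 against 105 and 65.7 CPM in si-Control_t), Csrp3, the muscle LIM protein (470 and 316 CPM in si-Thbs1 against 268 and 203 CPM in si-Control_t), and Myom2 of the M band (279 and 274 CPM in si-Thbs1 against 216 and 117 CPM in si-Control_t). Of 30 calcium handling and ion channel genes, 14 were higher and 16 lower in mean (median -0.03), 4 and 8 of them without overlap, against 18.5% and 10.8% of all genes. Limma called 0 of these, and Hrc had an unadjusted p under 0.05. Atp2a2, the calcium pump of the sarcoplasmic reticulum, was 2787 and 2040 CPM in si-Thbs1 and 3624 and 3257 CPM in si-Control_t (-0.53 ± 0.21). Its neighbour in that organelle, the calcium-binding Hrc, was 76.2 and 77.8 CPM against 102 and 105 CPM (-0.42 ± 0.12). Of 13 hypertrophy and stress genes, which include Xirp2, 11 were higher and 2 lower in mean (median 0.36). Xirp2 was the one without overlap, against 18.5% of all genes higher without overlap. It was also the one at an unadjusted p under 0.05, against 3.03% of all genes in that direction, and limma called 0. The natriuretic peptide genes varied widely within groups: Nppa was 8604 and 4225 CPM in si-Thbs1 and 4815 and 989 CPM in si-Control_t (1.47 ± 0.77), and Nppb was 1340 and 189 CPM against 509 and 144 CPM (0.89 ± 1.02).

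**Figure D4:**
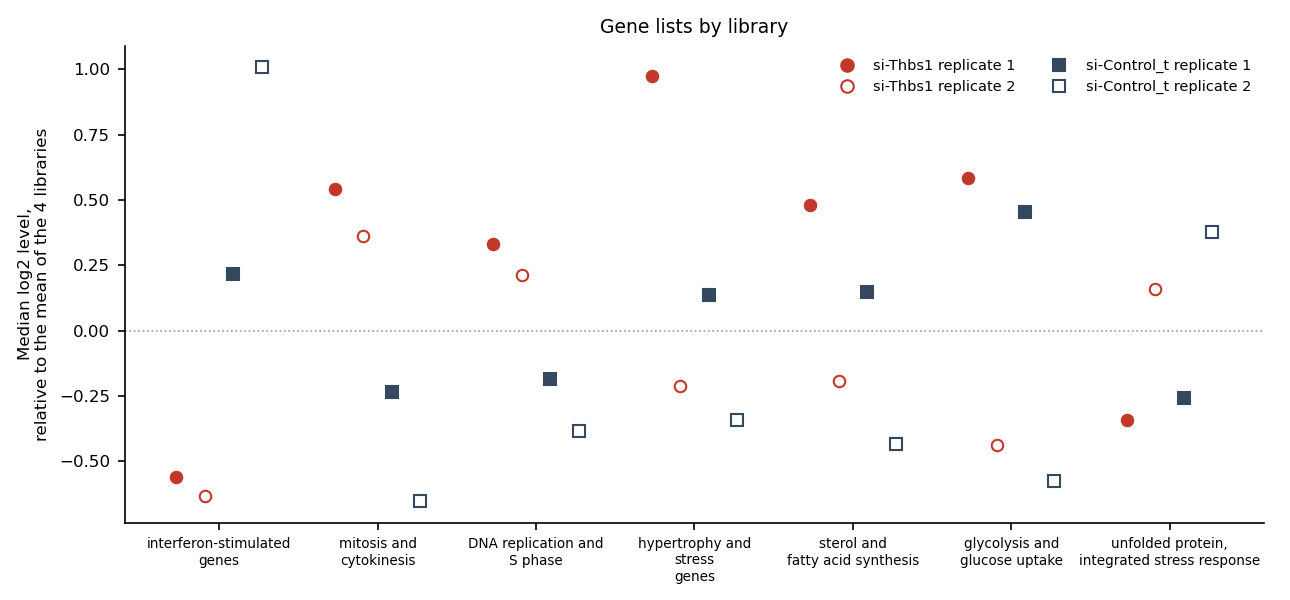
Median level of 7 gene lists in each library, as log2(CPM + 1) relative to the mean of the 4 libraries; filled symbols are replicate 1 and open symbols replicate 2, red circles si-Thbs1 and dark squares si-Control_t. Interferon-stimulated, mitosis and DNA replication genes separate by group, while the other lists separate by replicate number.

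Glycolysis and stress response genes followed the replicate number rather than the siRNA. The medians of sterol synthesis and hypertrophy genes were also higher in both libraries of replicate 1 than in both of replicate 2. For sterol synthesis and mitochondrially encoded genes, the median fold change depended on single libraries. The 24 glycolysis genes had medians of 0.59 and -0.44 (replicates 1 and 2) in si-Thbs1 and 0.45 and -0.57 in si-Control_t, on the log2 scale relative to the mean of the 4 libraries. Pgk1, a glycolytic kinase, was 1763 and 666 CPM in si-Thbs1 and 1651 and 508 CPM in si-Control_t, and the lactate exporter Slc16a3 470 and 110 CPM against 363 and 95.3 CPM. The 27 genes of the unfolded protein and integrated stress response ran the other way, at -0.34 and 0.16 in si-Thbs1 and -0.26 and 0.38 in si-Control_t. Sterol and fatty acid synthesis genes were higher in mean in 36 of 37 (median 0.29), but the median was -0.04 without si-Thbs1 replicate 1 and -0.02 without si-Control_t replicate 2. The 13 mitochondrially encoded genes were all lower in mean (median -0.20), and without si-Thbs1 replicate 1 the split was 6 higher and 7 lower (median -0.01).

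Markers of other cell types are given for the whole of each list, and their part in the results above was not tested. Fibroblast markers were lower in mean in 11 of 12 (median -0.32), 4 without overlap, against 10.8% of all genes. Vim, the other member, was higher without overlap, at 2444 and 2484 CPM in si-Thbs1 and 2131 and 1926 CPM in si-Control_t (0.28 ± 0.16). Among the lower ones, Lum was 503 and 477 CPM in si-Thbs1 and 693 and 749 CPM in si-Control_t (-0.56 ± 0.13), and Fbln1 241 and 284 CPM against 352 and 494 CPM (-0.67 ± 0.20). Macrophage markers, of cells that carry many of the immune genes described, were lower in 9 of 12 (median -0.27), 7 without overlap, and summed to 591 and 672 CPM in si-Thbs1 and 718 and 680 CPM in si-Control_t, with Cd163 at 0 throughout. Adgre1 was 38.4 and 63.2 CPM in si-Thbs1 and 80.2 and 91.7 CPM in si-Control_t (-0.79 ± 0.25), and the receptor Csf1r was 22.2 and 20.8 CPM against 31.1 and 28.2 CPM (-0.45 ± 0.14). Lymphocyte markers summed to 6.54 and 6.94 CPM in si-Thbs1 and 11.2 and 11.3 CPM in si-Control_t, most of it Cd4, with Cd3e, Cd3d, Ms4a1 and Gzmb at 0 in every library. Limma called 0 of the fibroblast, macrophage and lymphocyte markers, with 3, 3 and 1 at an unadjusted p under 0.05, against 5.52% of all genes.

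The summed levels of the other marker lists were 196 and 219 CPM in si-Thbs1 and 235 and 245 CPM in si-Control_t for epicardial cells, and 225 and 214 CPM in si-Thbs1 and 216 and 209 CPM in si-Control_t for endothelial cells. Smooth muscle and pericyte markers summed to 4282 and 2626 CPM in si-Thbs1 and 2933 and 2274 CPM in si-Control_t. Without overlap, Myh11, Cspg4, Des and Mcam of these were higher and Abcc9 lower. Among epicardial markers, Krt8 and Krt18 were higher and Upk1b, Wt1, Tbx18, Rspo1, Krt19 and Lrrn4 lower without overlap. No endothelial marker tested was either, and over all genes the shares were 18.5% higher and 10.8% lower. Myh11, Cspg4, Krt18 and Upk1b had an unadjusted p under 0.05 in limma's test, which called none of these markers. Schwann cell and neuron markers summed to 44.6 and 50.5 CPM in si-Thbs1 and 37.8 and 35.0 CPM in si-Control_t: of 7 tested, 4 were higher and 3 lower in mean, with Tubb3, Prph and Dbh higher without overlap. Erythroid markers summed to 3.56 and 2.84 CPM in si-Thbs1 and 4.15 and 3.2 CPM in si-Control_t, with Hbb at 0 in every library.

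Matrix and growth factor genes lay on both sides of 0. Of 33 collagen and matrix genes, 12 were higher and 21 lower in mean (median -0.04), against 58.4% and 41.6% of all genes. Limma called 0, with 5 at an unadjusted p under 0.05, against 5.52% of all genes. Of 29 TGF-beta genes, 17 were higher and 12 lower (median 0.02), and those at an unadjusted p under 0.05 were the binding proteins Ltbp1 (106 and 88.1 CPM in si-Thbs1 against 77.1 and 66.6 CPM in si-Control_t) and Ltbp2 (668 and 791 CPM in si-Thbs1 against 578 and 518 CPM in si-Control_t), which hold latent TGF-beta in the matrix, and the ligand Tgfb2 (141 and 95.6 CPM in si-Thbs1 against 87.8 and 65.2 CPM in si-Control_t). Limma called 0 of the 29, and 5.52% of all genes had an unadjusted p under 0.05. Of 28 growth factor signalling genes, 13 were higher and 15 lower in mean (median -0.02). Among these, 4 and 7 did so without overlap, against 18.5% and 10.8% of all genes. Limma called 0, with 3 at an unadjusted p under 0.05 (Igfbp4, Igf1 and Pdgfra, all lower), against 5.52% of all genes. Igfbp4, which binds insulin-like growth factors, was 52.8 and 67.7 CPM in si-Thbs1 and 89.5 and 99.3 CPM in si-Control_t (-0.65 ± 0.17), and Igf1 itself was 28.1 and 27.4 CPM against 35.2 and 40.8 CPM (-0.44 ± 0.15). Hippo effectors and targets, 21 genes, and cardiac transcription factors, 26 genes, had 0 at an unadjusted p under 0.05 and medians of -0.01 and -0.04.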

How the data were processed

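The 4 libraries of rat ventricular cardiomyocytes were read from a table of CPM values that the authors deposited, with 1 column per library. Per the submitters' processing notes, the tools named are edgeR 3.20.9, HISAT2 2.1.0 and StringTie 1.3.4, and the build is rn6, with no roles stated. The annotation and the handling of strand and of reads shared by copies are not given in the sources used here. Low values lie in steps, 99.1% to 99.2% of values being whole steps within 0.05, but a step need not be a read, so no count test was run and no counting interval is given. Genes with CPM of at least 1 in 2 of the 4 libraries were tested, 4 row names that occur more than once being left out. In R 4.3.3, limma 3.58.1 fitted log2(CPM + 1), a scale that understates the change of low genes, with 1 mean per group and a prior variance that follows intensity, and p-values were adjusted by Benjamini-Hochberg over 13416 genes, with calls at 0.05. The fit was run on simulated data with the same noise in every gene, which does not test it at the spread seen in these libraries. The mouse table was not analysed here. Levels in 10 libraries of the other rat table, which was scaled separately, were set beside these without tests; 2 of its columns matched no sample and were not used. Named genes were the called genes, the 15 with the smallest p in each direction (mean of at least 10 CPM, no value at 0, no overlap, not a predicted identifier) and the members of each list with the smallest p. Lum, Cdkn1a, Igf1, Thbs3, Nppa, Nppb, Pcna, Pgk1, Slc16a3 and others given for their known role or their spread were chosen with values in view. The libraries, gene lists and rules were chosen with earlier results of these data known. The lists are therefore described by counts and medians, with no test of a list. Promoters of 9024 tested genes with a single entry were matched by symbol in RefSeq (GRCr8), whose build differs from that of the files. Alternatives were another pseudocount, filter, scaling or variance prior, a replicate block, and leaving out each library.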

Additional observations from a re-analysis of the deposited data

How the results depend on the processing

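With 2 libraries a group, a gene that did not pass limma's test is not shown to be unchanged, and the depth in reads is unknown. The count of 6 called genes was the same with pseudocounts of 0.1 and 5 CPM, median-ratio scaling, quantile normalisation and a single prior variance, and was 5 with a filter of 5 CPM. It was 0 with no filter on low values (1014 at an unadjusted p under 0.05) and 1 without genes listed at 0 in any library, where fewer genes were tested. It ranged from 14 to 185 without single libraries, highest without si-Control_t replicate 1, and each of these sets contained the 6. A fit with 3 libraries assumes that the lone sample varies like the other group. The median log2 fold change ranged over -1.59 to -0.79 for interferon-stimulated genes, 0.69 to 1.08 for mitosis genes and 0.48 to 0.70 for DNA replication genes without single libraries. Thbs1 kept its direction and did not pass the test in any of 13 alternatives, at -0.75 to -0.30 without single libraries. A replicate block (the number in the labels as a term) gave 43 called genes, 27 higher and 16 lower, including the 6, and Thbs1 had an adjusted p of 0.137. These 43 held 8 mitosis genes (Anln, Prc1, Kif20a, Ect2, Ccnb1, Cdk1, Dlgap5 and Cdc20, all higher), 1 replication gene (Rrm2, higher) and 1 interferon-stimulated gene (Uba7, lower), of which the fit without the block called 0. They also held Cxcl13 (adjusted p = 0.0117), Penk (0.0188), Tap2 (0.0259) and Xirp2 (0.0259), and RT1-A2, Vcam1 and Rpl35a, all with limma. Same-numbered libraries deviated together (r = 0.41 across 13416 genes, which are not independent replicates), but with 2 pairs the number was not taken to pair the samples. Directions that reversed when single libraries were left out, with the range of the log2 fold change, were those of Vldlr (-0.30 to 0.48), Reln (-0.22 to 0.44), Thbs3 (-0.24 to 0.16), Nppb (-0.52 to 2.30), Tnnt2 (-0.056 to 0.068), Pgk1 (-0.61 to 1.09) and Slc16a3 (-0.75 to 1.33). Tnnt2 was also at -0.024 with median-ratio scaling. The causes were not tested.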
